A study of Mus musculus with 90 samples.

Results

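MAP kinase phosphatases and Sprouty proteins are brakes on the signalling chains that run from the T cell receptor and cytokine receptors to the kinases ERK, p38 and JNK. The genes described here are the dual-specificity phosphatase genes Dusp1, Dusp2, Dusp4, Dusp5, Dusp6, Dusp10, Dusp14 and Dusp16 and the Sprouty genes Spry1 and Spry2. They were taken by symbol from the mouse count table and number 10 of 23420 genes, a table that lists 24 Dusp and 4 Spry genes in all. Each member was read in 90 libraries as CPM, its share of the reads counted on genes in that library scaled to the usual common total.

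The study sorted regulatory T cells (Tregs) by their expression of the cytokines IL10 and IL35, and sorted CD8 T cells of mice whose Tregs lacked them. The Treg series holds 30 libraries in 10 groups of 3, each group with 1 library in each of 3 batches. Tumour-infiltrating (TIL), non-draining lymph node (ndLN) and naive Tregs were each sorted as IL10, Ebi3 and DN cells, where Ebi3 encodes a subunit of IL35 and DN is the sort that names no cytokine, and naive effector T cells (Teff) stand beside the naive Tregs. Naive is the labels' word for these groups and is not read here as a state of the cells. The CD8 series holds 60 libraries. They are 5 populations, namely tumour cells high for PD-1 and positive for TIM-3 (DP), high for PD-1 and negative for TIM-3 (SP), intermediate for PD-1 and negative for TIM-3 (INT), and negative for both (NEG), and cells of the non-draining lymph node (NDLN). Each population was taken from mice labelled DKO (n = 4), Il10 (n = 2), Ebi3L (n = 3) and yfp (n = 3). The series' design text calls the knockouts Treg-specific, for IL10, IL35 or both. Ebi3 itself was low in the SP and DP cells of DKO and Ebi3L mice. SP cells had 0.163 to 1.54 CPM of Ebi3 in DKO, 0 to 1.64 CPM in Ebi3L and 2.96 to 37.7 CPM in Il10 mice, against 10.9 to 22.5 CPM in yfp mice. DP cells had 0 to 0.508 CPM in DKO, 0 to 0.146 CPM in Ebi3L and 6.33 to 17 CPM in Il10 mice, against 2.17 to 2.38 CPM in yfp mice. The Il10 transcript in DP cells was at 0.498 to 0.853 CPM in Il10 mice and 0.102 to 53.4 CPM in DKO mice, against 1.4 to 8.28 CPM in yfp mice. Whether a deletion reached the CD8 cells was not tested. The labels name neither the Cre driver, the tumour nor the role of yfp, which was taken as the control. The groups of CD8 cells come from 12 sources, a source being 1 genotype within 1 set of libraries, and each source gave all 5 populations. The labels give 1 set number to 2 series of libraries, in batches 1 and 2. These were taken as 2 sets, and whether they share mice is not stated. Whether replicate libraries were made from different mice is not stated, and the p-values refer to the variation among the libraries as deposited, which may be technical.

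Dual-specificity phosphatases remove the phosphates from both the threonine and the tyrosine that switch a MAP kinase on, and most are themselves induced by the pathway they shut off. Dusp1, Dusp2, Dusp4 and Dusp5 encode the inducible nuclear group, of which the Dusp5 protein is specific to ERK. Dusp6 encodes the cytoplasmic ERK phosphatase, Dusp10 and Dusp16 encode phosphatases that prefer p38 and JNK, and Dusp14 encodes a small atypical member without the usual MAP kinase binding domain. Sprouty proteins act further upstream and limit Ras and ERK activation below tyrosine kinase receptors.

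Promoter sequence is shown for the 3 nuclear phosphatase genes Dusp1, Dusp2 and Dusp5. Of these, Dusp1 and Dusp5 were called between sites in both cell types by large changes. Dusp2 was not called between sites in Tregs and changed by less between sites in CD8 cells. The 250 bases before each annotated start are given from RefSeq on GRCm38.p6, 5′ to 3′ on the gene's own strand. Capitals mark a full cyclic AMP response element (TGACGTCA) and an E box (CACGTG) in Dusp1, an E box in Dusp2, and 2 adjacent CArG boxes, the motif of serum response factor, in Dusp5.
Dusp1, chr17:26508473-26508722, minus strand: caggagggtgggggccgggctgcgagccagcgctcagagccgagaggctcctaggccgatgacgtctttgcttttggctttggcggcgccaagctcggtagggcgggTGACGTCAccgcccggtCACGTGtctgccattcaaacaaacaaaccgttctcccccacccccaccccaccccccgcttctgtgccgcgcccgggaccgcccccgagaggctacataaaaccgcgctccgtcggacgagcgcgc
Dusp2, chr2:127335909-127336158, plus strand: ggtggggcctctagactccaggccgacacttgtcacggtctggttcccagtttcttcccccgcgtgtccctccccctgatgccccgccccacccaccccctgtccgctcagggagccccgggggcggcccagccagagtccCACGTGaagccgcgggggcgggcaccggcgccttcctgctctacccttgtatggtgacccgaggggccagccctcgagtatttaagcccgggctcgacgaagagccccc
Dusp5, chr19:53528895-53529144, plus strand: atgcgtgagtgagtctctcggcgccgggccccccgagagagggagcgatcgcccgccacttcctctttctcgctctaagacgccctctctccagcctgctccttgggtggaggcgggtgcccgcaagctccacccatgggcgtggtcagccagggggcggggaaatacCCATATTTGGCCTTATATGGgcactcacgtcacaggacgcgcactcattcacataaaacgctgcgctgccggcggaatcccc
Both strands were searched over 300 bases, from 250 before to 50 after the start, in the 9 members that the table of 32851 promoters holds; Dusp4 is named only. The response element was in 1 of 9 members and in 1.79% of all promoters, and the CArG box was in 1 of 9 and in 1.63%. The E box was in 2 of 9 members and in 7.15% of promoters. GGGCGG, the GC box, was in 7 of 9 and in 35.7%, and GGAAA, the core of an NFAT site, was in 5 of 9 and in 61.3%. The AP-1 site TGANTCA (7.81% of promoters), the ETS site CCGGAAG (8.86%) and the TATA box TATAAA (13.6%) were in 0 of the 9 windows. These are matches of letters only. On the same build Dusp1 lies at chr17:26505591-26508472, Dusp5 at chr19:53529145-53541809, Dusp4 at chr8:34807610-34819894, Dusp14 at chr11:84048033-84069256 and Dusp10 at chr1:184034381-184075636.

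Libraries held 9.73 to 20.2 Mreads (megareads) counted on genes in the Treg series and 19.2 to 47.7 Mreads in the CD8 series, so that 3 reads came to between 0.0629 and 0.308 CPM. Intervals of counting error are therefore narrow for most members, and the values near 0 below are the exception. The sorts were checked against their labels. Il10 stood at 115 to 155 CPM in TIL IL10 Tregs, against 1.39 to 3.37 CPM in TIL DN Tregs. Ebi3 stood at 6.06 to 15.7 CPM in TIL Ebi3 Tregs, against 0.445 to 0.785 in TIL DN Tregs. Foxp3, the lineage factor of Tregs, ranged from 29.1 to 157 CPM in the Tregs and was not absent from the Teff libraries, at 15.9 to 29.7 CPM. Cd8a was at 694 to 1502 CPM in the CD8 libraries and Cd4 at no more than 4.26. No annotated exon of a member overlapped an exon of another gene in the table.

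Tumour Tregs carried several of the brakes at much higher levels than lymph node Tregs of the same sort. Differences between groups were tested with edgeR's quasi-likelihood test with batch as a term, Benjamini-Hochberg adjustment over all 12907 genes tested and a threshold of 0.05, and a gene that passed is said to be called. In DN Tregs 5 of 10 members were called, all higher in the tumour, where 23.4% of all genes tested were called. In IL10 Tregs 5 of 10 were called higher, against 9.32% of all genes, and in Ebi3 Tregs 3 of 10, against 10.25%. The members' median log2 fold change was 2.24 in DN, 1.34 in IL10 and 1.29 in Ebi3 Tregs, while the median of all genes lay at 0.01, -0.02 and -0.04. In bulk libraries more cells with a transcript and more transcript per cell cannot be told apart.

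Dusp1, the most abundant member per kb of exon in tumour Tregs, encodes a nuclear phosphatase that acts mainly on p38 and JNK. It stood at 2283, 768 and 701 CPM in batches 1, 2 and 3 of TIL DN Tregs, against 171, 93.8 and 115 CPM in ndLN DN Tregs (log2 fold change 3.31 ± 0.48 (SE), edgeR adjusted p = 3.01e-05). TIL IL10 Tregs had 2465, 1240.3 and 944 CPM, against 266, 154 and 239 CPM in ndLN IL10 Tregs (log2 fold change 2.87 ± 0.47 (SE), edgeR adjusted p = 2.66e-04). TIL Ebi3 Tregs had 1744, 926 and 823 CPM, against 201, 99.5 and 134 CPM in ndLN Ebi3 Tregs (log2 fold change 3.12 ± 0.47 (SE), edgeR adjusted p = 9.43e-05). All 9 tumour libraries lay above all 9 lymph node libraries, and batch 1 was the highest of the tumour libraries in every sort. The call was kept in each sort when any 1 batch was left out.

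Dusp5, the nuclear phosphatase specific to ERK, moved the same way from a lower level. TIL DN Tregs had 39, 31.1 and 25.1 CPM, against 3.31, 8.16 and 5.24 CPM in ndLN DN Tregs (log2 fold change 2.58 ± 0.36 (SE), edgeR adjusted p = 5.29e-06). TIL Ebi3 Tregs had 34.7, 32.2 and 21.3 CPM, against 7.32, 5.84 and 3.71 CPM in ndLN Ebi3 Tregs (log2 fold change 2.56 ± 0.36 (SE), edgeR adjusted p = 9.20e-06). In the IL10 sort the groups were again separate, at 46.5, 40.3 and 31.4 CPM in TIL Tregs, against 15.8, 15.2 and 12.5 CPM in ndLN Tregs (log2 fold change 1.60 ± 0.35 (SE), edgeR adjusted p = 0.0024). Among lymph node Tregs the 3 IL10 libraries were the highest, and the IL10 call between sites was lost without batch 3 (adjusted p = 0.0696).

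Dusp4, another inducible nuclear phosphatase, was at 18 to 36.3 CPM over the 9 tumour Treg libraries and 6.88 to 12.1 CPM over the 9 lymph node libraries, with no overlap. It rose in DN Tregs, with 26.7, 34.2 and 25.7 CPM in TIL and 9.26, 9.12 and 6.88 CPM in ndLN (log2 fold change 1.90 ± 0.47 (SE), edgeR adjusted p = 0.00357), a call lost without batch 2 (adjusted p = 0.0612). It also rose in IL10 Tregs (log2 fold change 1.5 ± 0.46 (SE), edgeR adjusted p = 0.0377), a call lost without batch 2 or batch 3 (adjusted p up to 0.239) and without the batch term or with limma on the deposited log2 values (adjusted p up to 0.139). In Ebi3 Tregs it did not pass (log2 fold change 1.28 ± 0.46 (SE), edgeR adjusted p = 0.0776), although the tumour library was higher in 3 of 3 batches.

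Dusp2, the nuclear phosphatase first known from activated T cells, was abundant at every site and was not called between sites in any sort. It had 353, 339.7 and 153 CPM in TIL DN Tregs, against 331, 332 and 222 CPM in ndLN DN Tregs (log2 fold change -0.02 ± 0.19 (SE), edgeR adjusted p = 0.973). The groups overlapped, and in each of these groups batch 3 was the lowest library. Per kb of annotated exon, where levels of genes can be set beside each other, Dusp2 was at 141 and Dusp1 at 378 CPM per kb in TIL DN Tregs, against 147 for Dusp2 and 38.3 for Dusp1 in ndLN DN Tregs. The order of these levels was thus opposite at the 2 sites.

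**Figure D1:**
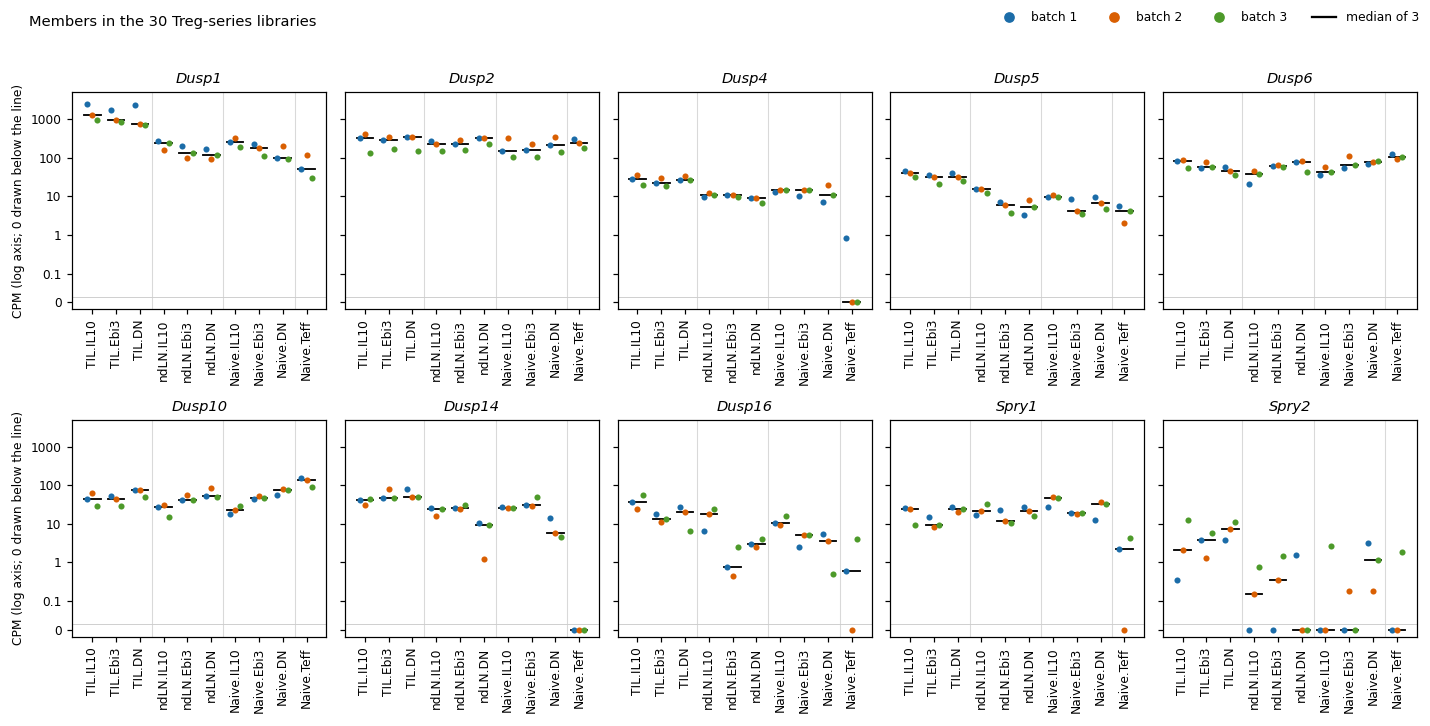
CPM of the 10 members in each of the 30 Treg-series libraries, on a log axis, with groups ordered by site and sort, points for single libraries coloured by batch, bars for group medians and libraries at 0 drawn under the line at the bottom. All 9 tumour libraries of Dusp1, Dusp4 and Dusp5 lie above all 9 lymph node libraries, while those of Dusp2 overlap.

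Dusp6, the cytoplasmic ERK phosphatase, behaved differently between sorts. It had 82.6, 89.4 and 53.7 CPM in TIL IL10 Tregs, against 21.1, 46.3 and 37.5 CPM in ndLN IL10 Tregs (log2 fold change 1.27 ± 0.25 (SE), edgeR adjusted p = 9.14e-04). In DN Tregs the tumour library was the lower in 3 of 3 batches, at 56.3, 45.3 and 34.8 CPM in TIL and 79, 83.5 and 43.2 CPM in ndLN, which did not pass (log2 fold change -0.45 ± 0.25 (SE), edgeR adjusted p = 0.198). The difference between the 2 site effects was itself tested as an interaction, IL10 minus DN, and was called for Dusp6 at 1.71 ± 0.35 (adjusted p = 0.00334), where 4.49% of all genes were called. It was lost without batch 2 (adjusted p = 0.0788).

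Dusp14, the atypical phosphatase, showed the second such difference. It had 78.6, 51.2 and 49.8 CPM in TIL DN Tregs, against 10.9, 1.23 and 9.52 CPM in ndLN DN Tregs (log2 fold change 3.23 ± 0.46 (SE), edgeR adjusted p = 9.50e-06), a call kept in every alternative. TIL Ebi3 Tregs had 46.2, 78 and 46.2 CPM, against 25.5, 24.4 and 30.4 CPM in ndLN Ebi3 Tregs (log2 fold change 1.30 ± 0.42 (SE), edgeR adjusted p = 0.0513), and TIL IL10 Tregs 40.8, 31.8 and 43.3 CPM, against 25.8, 16.3 and 24.5 CPM in ndLN IL10 Tregs (log2 fold change 0.99 ± 0.42 (SE), edgeR adjusted p = 0.164). The tumour libraries of the 3 sorts overlapped, and among lymph node Tregs the 3 DN libraries were the lowest. The interaction of IL10 minus DN was called, at -2.25 ± 0.60 (adjusted p = 0.031), but was lost without any 1 batch and without the batch term (adjusted p up to 0.127). That of Ebi3 minus DN, for which 1.61% of all genes were called, did not pass for Dusp14 at -1.93 ± 0.60 (adjusted p = 0.121), nor for any other member.

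The phosphatases that prefer p38 and JNK were unlike each other. Dusp16 had 18.3, 11.3 and 13.3 CPM in TIL Ebi3 Tregs, against 0.782, 0.449 and 2.57 CPM in ndLN Ebi3 Tregs (log2 fold change 3.78 ± 0.86 (SE), edgeR adjusted p = 0.00338). It had 27.2, 20.3 and 6.5 CPM in TIL DN Tregs, against 2.98, 2.46 and 3.95 CPM in ndLN DN Tregs (log2 fold change 2.78 ± 0.81 (SE), edgeR adjusted p = 0.0135), and both calls were lost without batch 1 or batch 2 (adjusted p up to 0.121 in Ebi3 and 0.166 in DN), and in DN also with limma on the deposited log2 values (adjusted p = 0.0622). In IL10 Tregs the tumour library was higher in 3 of 3 batches, at 36.8, 24.6 and 55.9 CPM in TIL and 6.6, 17.9 and 24 CPM in ndLN, without passing (log2 fold change 1.41 ± 0.76 (SE), edgeR adjusted p = 0.297). Dusp10 was called in the IL10 sort (log2 fold change 1.04 ± 0.24 (SE), edgeR adjusted p = 0.00386), with 43.9, 63.1 and 29 CPM in TIL and 27.5, 31.1 and 15.5 CPM in ndLN, a call lost without batch 2 (adjusted p = 0.102). In DN Tregs the Dusp10 values were 77.1, 75.5 and 50 CPM in TIL and 53.1, 85 and 50.8 CPM in ndLN (log2 fold change 0.23 ± 0.23 (SE), edgeR adjusted p = 0.509).

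Neither Sprouty gene was called between sites. Spry1 was at 8.08 to 26.9 CPM in tumour Tregs and 10.8 to 32.7 CPM in lymph node Tregs, and the groups overlapped. Spry2 was rare, at 3.76, 7.42 and 11 CPM in TIL DN Tregs, 0.35, 2.08 and 12.8 in TIL IL10 Tregs and 3.79, 1.31 and 5.8 in TIL Ebi3 Tregs, against 0 to 1.52 CPM over the lymph node libraries. The tumour library was the higher in 3 of 3 batches of each sort, and in DN Tregs the fitted difference had an error too wide to pass (log2 fold change 3.38 ± 1.94 (SE), edgeR adjusted p = 0.221).

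**Figure D2:**
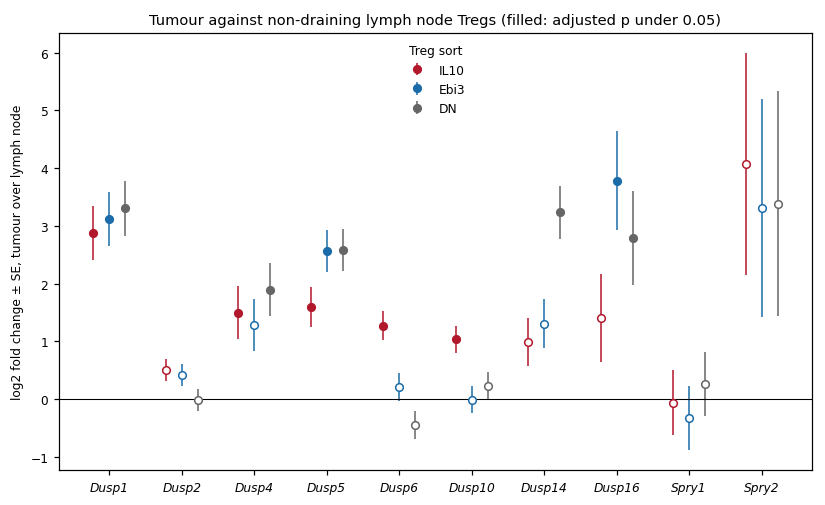
Log2 fold change of each member between tumour and lymph node Tregs of the same sort, with SE bars and filled symbols for members called at an adjusted p of 0.05. Dusp1 and Dusp5 are called in all 3 sorts, and Dusp6 lies at 1.27 in IL10 Tregs and at -0.45 in DN Tregs.

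Immediate-early and heat shock genes, which can rise while tissue is dissociated, were counted beside these members. The 9 genes of that list summed to 458 to 1316 CPM in tumour Tregs, against 349 to 483 CPM in lymph node Tregs, and Fos alone to 105 to 755 CPM, against 6.47 to 28.1. Egr1, on the same list, overlapped, at 40.9 to 193 CPM in tumour and 88.7 to 175 CPM in lymph node Tregs. The part of cell handling in the Dusp1 and Dusp5 differences was not tested. The sums of myeloid genes overlapped, at 884 to 1350.0 CPM in tumour and 927 to 1275 CPM in lymph node Tregs, carried by Ctss and Cst3. Those of B cell genes overlapped too, at 19.1 to 51 CPM in tumour and 18 to 102 CPM in lymph node Tregs, with Pax5, one of the defining genes, at 0 throughout. Pigment cell genes summed to 7 to 28.4 CPM in tumour and 5.3 to 30.9 CPM in lymph node Tregs, where 4 of the 5, Tyrp1 among them, were at 0; Tyrp1 was at 2.31 to 9.76 CPM in tumour Tregs, and its part in the results was not tested.

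Within a site, members were called between sorts outside the tumour and not inside it, where fewer genes of any kind were called. Among tumour Tregs no member was called for IL10 against DN, Ebi3 against DN or IL10 against Ebi3, with 0.837%, 0.713% and 2.84% of all genes called; at an unadjusted p under 0.05 the counts of members were 2, 1 and 0, and DESeq2 called 221, 196 and 637 genes. Among lymph node Tregs 5 of 10 members were called for IL10 against DN (16.2% of all genes), 1 for Ebi3 against DN (13%) and 3 for IL10 against Ebi3 (5.07%). Among naive Tregs the counts were 3 (17.8%), 2 (12.8%) and 1 (5.48%). The tumour and naive counts and the lymph node count for Ebi3 against DN are near the shares of all genes. Comparisons against the same DN libraries share those samples. The sums of 2 lists of marker genes differed between the sorts. The 5 stromal and endothelial genes summed to 42.8 to 46.7 CPM in ndLN IL10 and 84.9 to 102 CPM in ndLN Ebi3 Tregs, against 165 to 271 CPM in ndLN DN Tregs. In naive Tregs they summed to 32.4 to 59.5 CPM in the IL10 and 90.6 to 126 CPM in the Ebi3 sort, against 158 to 279 CPM in the DN sort. Of this list Col3a1 and Sparc were at 0 in all ndLN Treg, naive Treg and naive Teff libraries. In naive Teff the list summed to 246 to 273 CPM, so the sums do not by themselves show stromal cells. B cell genes summed to 47.9 to 95.6 CPM in ndLN IL10 and 60.5 to 102 CPM in ndLN Ebi3 Tregs, against 18 to 57 CPM in ndLN DN Tregs. The part of these in the differences between sorts was not tested. A call at one site and none at another does not show that the sites differ, except for the Dusp6 and Dusp14 interactions given above.

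Dusp10 was lowest in the IL10 sort among naive and lymph node Tregs, though not in the tumour, where Ebi3 Tregs averaged 41.7 ± 12.4 CPM and IL10 Tregs 45.3 ± 17.1 CPM (SD, n = 3 each). Naive IL10 Tregs had 18.5, 23 and 28.3 CPM, against 57.5, 80.2 and 75.1 CPM in naive DN Tregs (log2 fold change -1.58 ± 0.24 (SE), edgeR adjusted p = 1.83e-05). Lymph node IL10 Tregs had the values given above and were also lower than ndLN DN Tregs (log2 fold change -1.36 ± 0.24 (SE), edgeR adjusted p = 1.59e-04), and both calls were kept without any 1 batch. Ebi3 Tregs lay between, at 43.2, 53.7 and 46.5 CPM in naive and 42, 56.2 and 41.6 CPM in lymph node Tregs. IL10 Tregs were lower than Ebi3 Tregs in the naive groups (log2 fold change -0.93 ± 0.24 (SE), edgeR adjusted p = 0.0153) and in the lymph node (log2 fold change -0.89 ± 0.23 (SE), edgeR adjusted p = 0.0226). In that order these calls were lost without batch 1 or 2 and without batch 2 or 3 (adjusted p up to 0.279 and 0.225). Both were also lost without the batch term. Dusp6, the ERK phosphatase, was also lower in IL10 than in DN Tregs, in the lymph node (log2 fold change -0.95 ± 0.25 (SE), edgeR adjusted p = 0.00851) and in the naive groups (log2 fold change -0.77 ± 0.25 (SE), edgeR adjusted p = 0.0284). In that order these calls were lost without batch 1 or 2 and without any 1 batch (adjusted p up to 0.182 and 0.189).

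Dusp14 ran the opposite way among naive and lymph node Tregs, where it was lowest in the DN sort. In the tumour the DN group was not the lowest, and its 3 libraries, given above, all lay above the 3 of the IL10 sort without a call. Naive IL10 Tregs had 27.6, 25.3 and 26.5 CPM and naive Ebi3 Tregs 31.7, 29.6 and 49.2 CPM, against 13.8, 5.87 and 4.59 CPM in naive DN Tregs. The groups did not overlap, and the difference was called for IL10 (log2 fold change 1.75 ± 0.44 (SE), edgeR adjusted p = 0.00622) and for Ebi3 (log2 fold change 2.14 ± 0.44 (SE), edgeR adjusted p = 0.00171). In the lymph node it was called for IL10 (log2 fold change 1.68 ± 0.44 (SE), edgeR adjusted p = 0.0093) and for Ebi3 (log2 fold change 1.92 ± 0.44 (SE), edgeR adjusted p = 0.00425). Each of these 4 calls was lost without batch 2, without batch 3 or without either, with adjusted p up to 0.116 in naive and 0.058 in lymph node Tregs.

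Among lymph node Tregs, Dusp5 and Dusp16 were highest in the IL10 sort. Dusp16 had 6.6, 17.9 and 24 CPM there, and was called against Ebi3 (log2 fold change 3.81 ± 0.86 (SE), edgeR adjusted p = 0.00657) and against DN (log2 fold change 2.37 ± 0.80 (SE), edgeR adjusted p = 0.0431). Dusp5 was called against Ebi3 (log2 fold change 1.47 ± 0.35 (SE), edgeR adjusted p = 0.0107) and against DN (log2 fold change 1.35 ± 0.35 (SE), edgeR adjusted p = 0.00812). These 4 calls were each lost without at least 1 batch, with adjusted p up to 0.296. Without the batch term Dusp16 against DN (adjusted p up to 0.0981) and Dusp5 against Ebi3 (adjusted p = 0.0698) were lost too, and Dusp16 against DN also without the filter on low counts and with limma. Dusp2 was called once, lower in naive Ebi3 than in naive DN Tregs (log2 fold change -0.56 ± 0.19 (SE), edgeR adjusted p = 0.0491), a call lost without any 1 batch and under all other settings but DESeq2 (adjusted p up to 0.517).

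Lymph node and naive Tregs did not differ detectably. Of 30 member tests 0 were called with edgeR in the DN, IL10 and Ebi3 sorts, where 0.0852%, 0.0542% and 0.00775% of all genes were called; 3 members were under an unadjusted p of 0.05, and DESeq2 and limma called 0 members. Spry1 had 16.9, 21.4 and 32.7 CPM in ndLN IL10 Tregs, against 28.1, 48.9 and 45.9 CPM in naive IL10 Tregs (log2 fold change -0.79 ± 0.55 (SE), edgeR adjusted p = 0.894). Dusp1 ranged from 93.8 to 266 CPM in lymph node and from 94 to 317 CPM in naive Tregs. These groups overlapped.

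Naive DN Tregs were set apart from naive Teff by 4 of 10 members, against 12.2% of all genes. Dusp4 had 7.27, 19.3 and 11.1 CPM in naive DN Tregs, against 0.818, 0 and 0 CPM in Teff (log2 fold change 5.35 ± 0.61 (SE), edgeR adjusted p = 3.64e-07). Dusp14 had 13.8, 5.87 and 4.59 CPM, against 0 in all 3 Teff libraries, and was at least 33.9-fold higher with Teff set to 3 reads per library (adjusted p = 1.97e-07). Spry1, which encodes a Sprouty protein that limits Ras signalling, had 12.9, 37 and 32.2 CPM in naive DN Tregs, against 2.18, 0 and 4.34 CPM in Teff (log2 fold change 3.70 ± 0.64 (SE), edgeR adjusted p = 1.51e-04). These 3 genes were at 4.34 CPM or less in every Teff library, and their calls held without any 1 batch. Dusp10 was the exception in direction, at 57.5, 80.2 and 75.1 CPM in naive DN Tregs and 150.5, 140.2 and 89.7 CPM in Teff (log2 fold change -0.78 ± 0.23 (SE), edgeR adjusted p = 0.0257), a call lost without batch 1 or 2 (adjusted p up to 0.316) and without the batch term. B cell genes summed to 31.1 to 74 CPM in naive DN Tregs, against 0.617 to 5.39 CPM in Teff, and myeloid genes to 885 to 1092 CPM, against 630.4 to 718 CPM, with no overlap in either list. Their part in the members' differences was not tested.

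In CD8 T cells some members were higher in tumour cells without PD-1 than in lymph node cells, here named the early set. Others, the late set, rose with PD-1, Dusp6 among them by smaller changes. Spry2 of the early set rose again with PD-1, Dusp10 fell and Dusp16 was not called. The sets were named from the values below. Early and late stand for the order NDLN, NEG, INT, SP and DP, and not for time, which was not measured. The steps were compared over the 60 libraries with source as a block, a fit added after the data were seen and run on 12574 genes; genotypes were balanced across populations within each source. Against all genes called in the same step, members were called higher and lower as 4 and 0 for NEG against NDLN (18.4% of all genes), 3 and 1 for INT against NEG (15.6%), 4 and 0 for SP against INT (31.9%), 1 and 0 for DP against SP (25.9%), and 6 and 2 for DP against NEG (63.1%). The count for SP against INT is near its share, and that for DP against SP is below it. Calls were thus common among all genes at these steps. The share for DP against NEG is so high that a call there says little about a member on its own. Neighbouring steps share a population, so their results are not independent.

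Dusp1 and Dusp5 led the early set. Dusp1 ranged over 111 to 510.4 CPM, median 218, in the 12 NEG libraries, against 3.44 to 63.9 CPM, median 8.69, in the 12 NDLN libraries (log2 fold change 4.25 ± 0.32 (SE), edgeR adjusted p = 3.99e-14). NEG was higher in 12 of 12 sources, the groups did not overlap, and the later populations stayed at that height, with 130.4 to 598 CPM, median 269.7, in DP cells (log2 fold change 0.19 ± 0.27 (SE), edgeR adjusted p = 0.567 against NEG). Dusp5 had 3.16 to 34 CPM, median 12.3, in NEG cells, against 0.236 to 4.42 CPM, median 1.11, in NDLN cells (log2 fold change 3.22 ± 0.25 (SE), edgeR adjusted p = 1.81e-14), again higher in 12 of 12 sources. It was higher still in DP cells, with 3.21 to 39 CPM, median 22.5, than in SP cells, with 1.53 to 27.7 CPM, median 17.5 (log2 fold change 0.61 ± 0.23 (SE), edgeR adjusted p = 0.037). That last step was upward in 12 of 12 sources although its ranges overlapped, and the call was lost in 7 of 12 fits that left out a source (adjusted p up to 0.0821). Dusp5 was called higher in DP than in NEG cells (log2 fold change 0.61 ± 0.23 (SE), edgeR adjusted p = 0.0178), though not without 1 of the sources (adjusted p = 0.0542). Dusp5 also moved with batch. Its 12 tumour libraries of batch 3 held 1.53 to 5.93 CPM, below all 36 of batches 1 and 2 with 7.65 to 39.0 CPM, and batch 3 holds yfp and Ebi3L libraries alone.

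Spry2 and Dusp2 were the other members called at the first step. Spry2 had 0 to 8.31 CPM, median 2.05, in NEG cells, against 0 to 0.446 CPM, median 0.0196, in NDLN cells, where 6 of 12 libraries were at 0 (log2 fold change 5.14 ± 0.64 (SE), edgeR adjusted p = 1.66e-08). It was higher in 11 of 12 sources and was called higher again in SP cells, with 4.01 to 14.6 CPM, median 9.98, above INT cells, with 0.726 to 5.9 CPM, median 3.66 (log2 fold change 1.60 ± 0.51 (SE), edgeR adjusted p = 0.0121). Dusp2 showed a small early rise, with 119 to 377 CPM, median 254, in NEG cells, against 111 to 226 CPM, median 160.4, in NDLN cells (log2 fold change 0.55 ± 0.14 (SE), edgeR adjusted p = 0.00294), in 9 of 12 sources. It was lower in DP than in NEG cells (log2 fold change -0.32 ± 0.14 (SE), edgeR adjusted p = 0.0402), a call lost in 7 of 12 fits that left out a source.

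Handling genes moved with the early set as they had in Tregs. They summed to 543 to 2882 CPM in NEG cells, against 178 to 1094 CPM in NDLN cells, and were back at 335 to 1043 CPM in DP cells. Fos had 109 to 874 CPM in NEG, against 0 to 99.9 in NDLN cells, and 11.7 to 88 CPM in DP cells. The part of handling in the NEG against NDLN differences was not tested. Genes of other cell types also differed along the series. NK cell genes summed to 497 to 831 CPM in DP, 555 to 1088 CPM in SP, 342 to 885 CPM in INT and 113 to 596 CPM in NEG cells, carried by Klrk1 and Eomes, which CD8 T cells express too. B cell genes summed to 0 to 22.3 CPM in DP and 21.3 to 76.4 CPM in NEG cells, and myeloid genes to 293 to 928 CPM in DP, 294 to 1579 CPM in SP, 293 to 674 CPM in INT and 291 to 542 CPM in NEG cells. Both ends of the SP range were libraries of Ebi3L mice, in which the sum averaged 1069 ± 683 CPM (SD, n = 3). The part of these in the members' values was not tested.

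**Figure D3:**
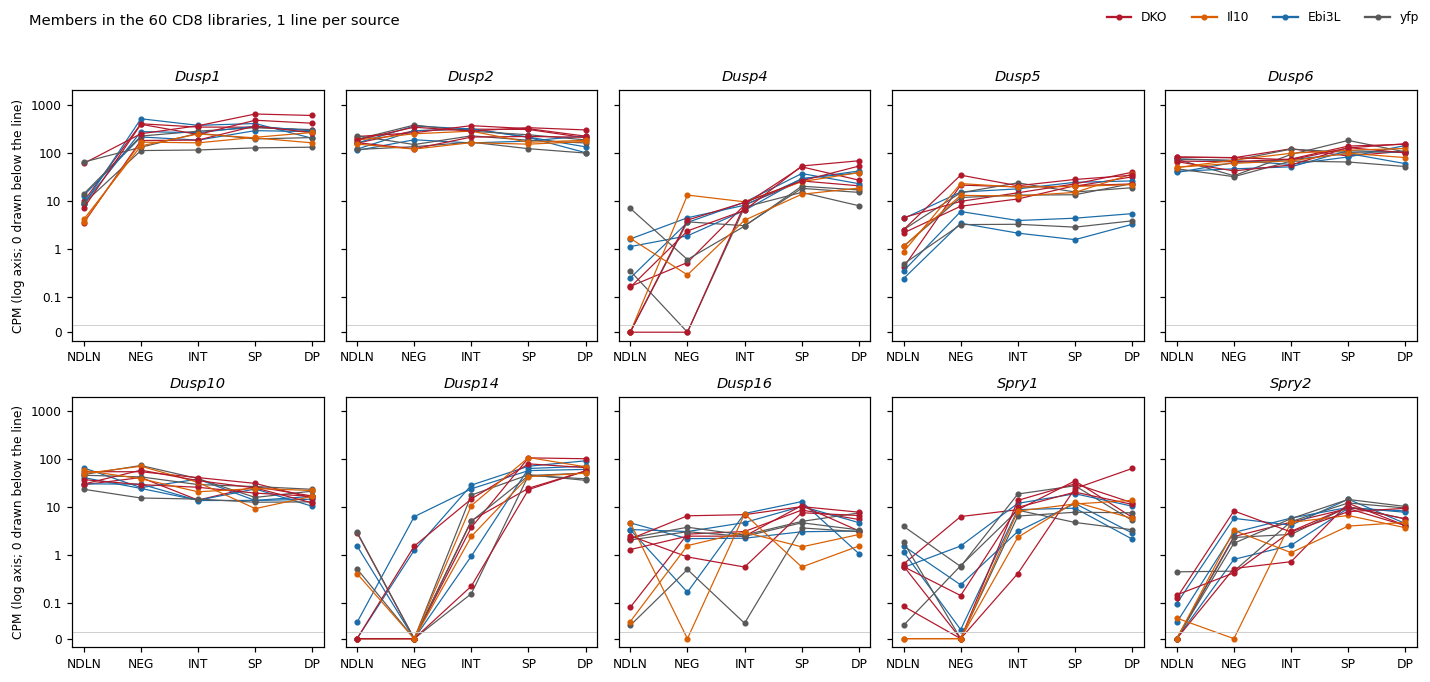
CPM of the 10 members in the 60 CD8 libraries, on a log axis, by population in the order NDLN, NEG, INT, SP and DP, with a point per library, a line joining the 5 populations of a source, colours for genotypes and libraries at 0 under the line at the bottom. Dusp1 steps up between NDLN (median 8.69 CPM) and NEG (median 218 CPM), while Dusp14 steps up between NEG (median 0 CPM) and SP (median 52.5 CPM).

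Dusp14, Dusp4 and Spry1 had the largest changes in the late set. Dusp14 had 36.1 to 102 CPM, median 59.1, in DP cells and 23.2 to 108 CPM, median 52.5, in SP cells, against 0.156 to 28.7 CPM, median 5.15, in INT cells. NEG cells reached 6.31 CPM at most and were at 0 in 9 of 12 libraries, and NDLN cells were at 0 in 6 of 12. Each upward step was seen in 12 of 12 sources, for INT against NEG (log2 fold change 4.01 ± 0.81 (SE), edgeR adjusted p = 3.71e-04) and for SP against INT (log2 fold change 3.43 ± 0.74 (SE), edgeR adjusted p = 2.88e-04). No step was called between SP and DP (log2 fold change 0.22 ± 0.65 (SE), edgeR adjusted p = 0.856), and the fitted fold changes against NEG depend on the treatment of zeros.

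Dusp4, the inducible nuclear phosphatase, was called at the step of SP against INT. It had 7.83 to 67.9 CPM, median 24.7, in DP cells and 13.6 to 52.9 CPM, median 25.8, in SP cells, against 2.94 to 9.46 CPM, median 7.68, in INT cells and 0 to 13.1 CPM, median 2.09, in NEG cells. All 12 SP libraries lay above all 12 INT libraries (log2 fold change 1.97 ± 0.62 (SE), edgeR adjusted p = 0.012), while INT against NEG was upward in 10 of 12 sources without passing (log2 fold change 1.62 ± 0.66 (SE), edgeR adjusted p = 0.0881), and NEG against NDLN did not pass either (log2 fold change 1.62 ± 0.75 (SE), edgeR adjusted p = 0.131). Spry1 rose a step earlier, with 0.412 to 18.7 CPM, median 8.72, in INT cells, against 0 to 6.36 CPM, median 0.0853, in NEG cells (log2 fold change 4.35 ± 0.82 (SE), edgeR adjusted p = 1.13e-04), higher in 12 of 12 sources. It had 2.15 to 63.9 CPM, median 6.88, in DP cells and 4.78 to 35.3 CPM, median 15.9, in SP cells, and DP was the lower in 10 of 12 sources without passing (log2 fold change -0.50 ± 0.69 (SE), edgeR adjusted p = 0.671).

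Dusp6 and Dusp10 moved in opposite directions. Dusp6, the cytoplasmic ERK phosphatase, had 51.5 to 154 CPM, median 105, in DP cells, against 31.6 to 79.2 CPM, median 63.5, in NEG cells (log2 fold change 0.86 ± 0.14 (SE), edgeR adjusted p = 3.49e-07), higher in 11 of 12 sources. The step of SP against INT was called (log2 fold change 0.48 ± 0.14 (SE), edgeR adjusted p = 0.00541), and the smaller step of INT against NEG (log2 fold change 0.39 ± 0.14 (SE), edgeR adjusted p = 0.0429) was lost in 8 of 12 fits that left out a source. Dusp10 fell along the series, with 10.4 to 23.5 CPM, median 16.8, in DP cells, against 15.5 to 73.8 CPM, median 40.2, in NEG cells (log2 fold change -1.23 ± 0.19 (SE), edgeR adjusted p = 1.59e-07). DP was the lower in 12 of 12 sources, and the step of INT against NEG was called (log2 fold change -0.70 ± 0.19 (SE), edgeR adjusted p = 0.0071). Dusp16, its relative in preference for p38 and JNK, was low throughout, with 1.07 to 7.84 CPM, median 3.27, in DP cells and 0 to 6.58 CPM, median 2.34, in NEG cells, and was not called although DP was higher in 12 of 12 sources (log2 fold change 1.12 ± 0.60 (SE), edgeR adjusted p = 0.0985).

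**Figure D4:**
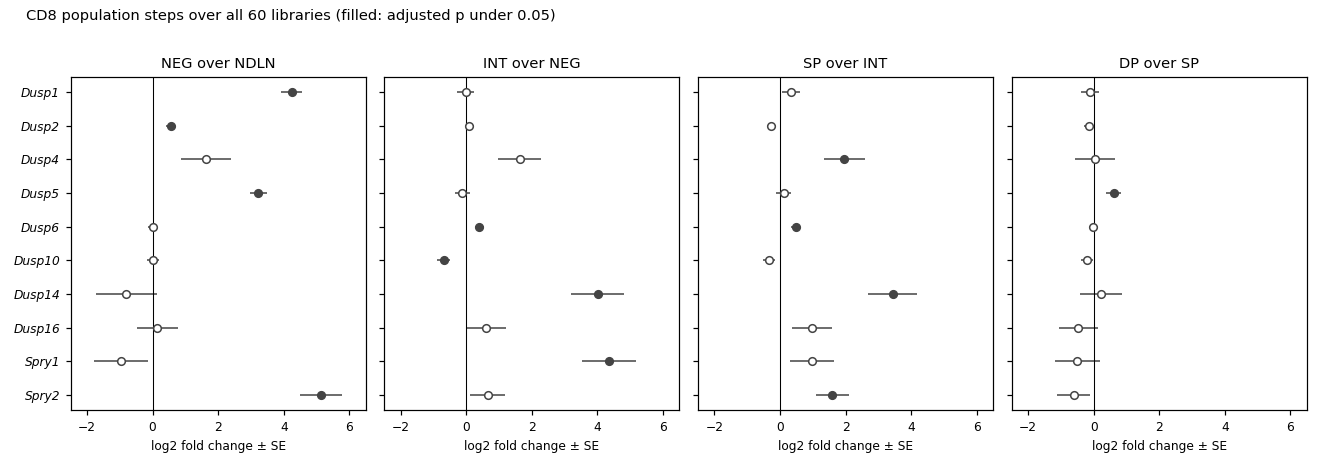
Log2 fold change of each member at each step between CD8 populations over 60 libraries with source as a block, with SE bars and filled symbols for called members. Dusp1 and Dusp5 move at NEG against NDLN (4.25 and 3.22), and Dusp14 at INT against NEG and SP against INT (4.01 and 3.43).

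The same steps were tested within each genotype with fewer libraries and with batch as a term. In yfp mice 2 members were called for NEG against NDLN (1.56% of all genes), namely Dusp1 with 130.0, 222 and 111 CPM in NEG, against 63.9, 13.8 and 8.78 CPM in NDLN cells (log2 fold change 2.71 ± 0.51 (SE), edgeR adjusted p = 0.028), and Dusp5 (log2 fold change 2.91 ± 0.44 (SE), edgeR adjusted p = 0.00323). The yfp steps of INT against NEG, SP against INT and DP against SP had 0 members called by edgeR, with 3, 1 and 0 under an unadjusted p of 0.05, and 0.938%, 4.89% and 1.21% of all genes called. For DP against NEG 4 members were called in yfp (33.2%), namely Dusp6, Dusp10, Spry1 and Dusp14, of which Dusp14 was at 0 in the 3 NEG libraries and at least 388-fold higher in DP cells. In DKO mice the counts were 4 for NEG against NDLN (5.58%) and 5 for DP against NEG (41.4%), in Il10 mice 1 (0.299%) and 2 (10.07%), and in Ebi3L mice 3 (1.44%) and 4 (33.3%). Dusp1 was called for NEG against NDLN in all 4 genotypes, at 4.12 ± 0.63 in DKO, 5.40 ± 0.37 in Il10 and 5.08 ± 0.38 in Ebi3L mice, and Dusp14 was called for DP against NEG in all 4, though in Ebi3L mice not with the set as replicate block (adjusted p = 0.0505). Fits without 1 replicate leave out a library of every population, and most single calls with such fits were lost in at least 1 of them. In yfp mice all 6 were lost without at least 1 replicate, with adjusted p up to 0.351, for Dusp1 without replicate 2 or 3. These fits also hold fewer libraries, so dependence on any single library was not tested. Without the filter on low counts Dusp1 (adjusted p = 0.0572) and Spry1 (adjusted p = 0.0752) were lost as well.

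Between knockouts and yfp within a population, 0 of 147 member tests were called by edgeR in 15 comparisons. The share of all genes called was 0% in 11 of them, 0.00775% in INT cells of each knockout and 0.00811% in NDLN cells of Il10 mice. At an unadjusted p under 0.05 there were 15 member tests, and DESeq2 called 38 to 171 genes per comparison and 0 members. The interactions of genotype with DP against NEG likewise gave 0 members and 0% of all genes in each knockout, with 0 members at an unadjusted p under 0.05. The comparisons of the 3 knockouts share the yfp libraries. Genotype and batch overlapped only in part. The yfp and Ebi3L libraries lay in batches 1 and 3, and the DKO and Il10 libraries in batches 1 and 2. With batch as a term, DKO and Il10 were therefore set directly against yfp in batch 1 alone.

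Dusp1 and Dusp4 are described further and were chosen after their values were seen. The averages given for them take no account of batch. Dusp1 averaged 455 ± 138 CPM in SP cells of DKO mice (SD, n = 4) and 218 ± 105 CPM in those of yfp mice (SD, n = 3), which did not pass (log2 fold change 1.00 ± 0.31 (SE), edgeR adjusted p = 0.53). In Il10 mice it averaged 207 ± 4.17 CPM in SP and 153 ± 19.4 CPM in NEG cells (SD, n = 2), against 218 ± 105 and 154 ± 59.5 CPM in SP and NEG cells of yfp mice (SD, n = 3). Without the filter on low counts Dusp1 was called in SP and NEG cells of DKO mice (adjusted p = 0.00012 and 0.00013) and in NEG cells of Ebi3L mice (adjusted p = 0.014), and these were the 3 member calls that any alternative gave here. Dusp4 averaged 41.9 ± 22.2 CPM in DP cells of DKO mice (SD, n = 4), 34.1 ± 10.08 in those of Ebi3L mice (SD, n = 3) and 28.4 ± 14.3 in those of Il10 mice (SD, n = 2), against 13.2 ± 4.7 CPM in yfp mice (SD, n = 3). The difference of DKO was 1.48 ± 0.48 on the log2 scale (edgeR adjusted p = 0.855) and that of Ebi3L 1.64 ± 0.51 (edgeR adjusted p = 0.747). The spread within the knockout groups was wide, and at this number of libraries these differences were not detectable. The low Ebi3 values of DKO and Ebi3L cells given in the opening go with the same groups, and their part was not tested.

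The other genes of the pathways were counted from fixed lists, chosen with earlier results of these data known. In tumour against lymph node Tregs, genes called higher and lower among the targets and early responders of ERK were 8 and 2 of 19 in DN, 7 and 1 in IL10 and 7 and 0 in Ebi3 Tregs. In either direction 23.4%, 9.32% and 10.25% of all genes were called in these 3 comparisons, and the counts of every list here stand beside those shares. The ERK list shares Fos, Fosb, Jun and Egr1 with the immediate-early and heat shock genes above, here and in CD8 cells. Fosl2, an AP-1 subunit gene, was called higher in each sort, at 5.11 ± 0.84 (adjusted p = 7.49e-05) in DN, 3.41 ± 0.76 (adjusted p = 0.00431) in IL10 and 4.21 ± 0.81 (adjusted p = 8.09e-04) in Ebi3 Tregs. Among the p38 and JNK genes the counts were 5 and 2 of 17, 5 and 1, and 5 and 1; Gadd45b and Gadd45g, whose products activate a kinase upstream of p38 and JNK, were among the higher ones, with Gadd45b at 2.89 ± 0.33 (adjusted p = 2.79e-07) in DN and Gadd45g at 2.36 ± 0.46 (adjusted p = 8.00e-04) in IL10 Tregs. The kinases and exchange factors from Ras to ERK had 3 and 2 of 15, 2 and 1, and 1 and 1 called, and Rasgrp2, an exchange factor gene, was lower in each sort, at -2.44 ± 0.32 (adjusted p = 2.57e-06) in DN, -2.45 ± 0.32 (adjusted p = 6.74e-06) in IL10 and -2.92 ± 0.33 (adjusted p = 4.88e-07) in Ebi3 Tregs. Other Ras brakes had 1 and 4 of 12, 0 and 1, and 2 and 3 called; Rasa3, a Ras GTPase activator gene, was lower in each sort, at -1.65 ± 0.19 (adjusted p = 2.84e-07) in DN Tregs. The other phosphatases of the family had 2 and 0 of 11, 0 and 2, and 0 and 0 called, with Dusp3 at 6.5 ± 1.18 (adjusted p = 2.01e-04) in DN Tregs.

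In CD8 cells the same lists were counted for tumour NEG cells against NDLN cells and for DP against NEG cells. For NEG against NDLN, 9 of 18 ERK targets were higher and 1 was lower, and 4 of 17 p38 and JNK genes were higher and 0 lower, beside 18.4% of all genes called. The p38 and JNK count is near that background. For DP against NEG, 5 of 18 ERK targets were higher and 8 lower, and 4 of 17 p38 and JNK genes were higher and 10 lower. Etv4 and Etv5, ETS factor genes known as targets of ERK signalling, were higher in DP than in NEG cells, at 6.02 ± 1.06 (adjusted p = 2.50e-06) and 3.72 ± 1.08 (adjusted p = 0.00235). Gadd45g was 2.82 ± 0.23 (adjusted p = 5.04e-14) for NEG against NDLN and -2.13 ± 0.22 (adjusted p = 6.01e-12) for DP against NEG. Of the Ras to ERK genes 5 of 15 were higher and 7 lower for DP against NEG, and of the other Ras brakes 4 of 13 and 4, with Rasa3 at -2.94 ± 0.19 (adjusted p = 1.24e-18) and Dgka, a diacylglycerol kinase gene, at -2.48 ± 0.14 (adjusted p = 4.39e-21). The other phosphatases had 4 of 11 higher and 3 lower, and Dusp3 had the largest change among them at 4.05 ± 0.89 (adjusted p = 1.34e-04). These counts stand beside the 63.1% of all genes called in that comparison.

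Several pairs of members varied together across libraries. Pearson's r of log2(CPM + 0.5) between Dusp1 and Dusp5 was 0.880 over the 30 Treg-series libraries and 0.743 over the 60 CD8 libraries, and that between Dusp4 and Dusp14 was 0.880 and 0.836. Other pairs came close, with Dusp5 and Dusp16 at 0.799 and Dusp4 and Spry1 at 0.745 in the Treg series, and Dusp14 and Spry1 at 0.765, Dusp14 and Spry2 at 0.755 and Dusp1 and Spry2 at 0.749 in the CD8 series. Dusp10 ran against Dusp14, with r of -0.625 and -0.770. With handling genes, Dusp1 had r of 0.759 (Fos), 0.431 (Hspa1a), 0.265 (Jun) and -0.421 (Egr1) in the Treg series. Over the CD8 libraries the same values were 0.742, 0.692, 0.740 and 0.0363, and the other genes of that list were not compared. These points share groups, batches and sources, so the values describe the libraries and carry no p. Among all genes outside the members, the most alike to Dusp1 were Nfkbia, which encodes the NF-kappaB inhibitor, in the Treg series (r = 0.964) and Rgs1, a regulator of G protein signalling, in CD8 cells (r = 0.894). Those most alike to Dusp14 were Il1r2, the decoy receptor gene of IL1 (r = 0.961), in the Treg series and Nrgn (r = 0.933) in CD8 cells. For Dusp4 they were Myo1e (r = 0.948) and Rnh1 (r = 0.882), and for Dusp5 D16Ertd472e (r = 0.947) and Dennd4a (r = 0.884). Dusp10 was most alike to Themis (r = 0.841) in the Treg series and to Ppp2r5a (r = 0.812) in CD8 cells, and Spry2 to Klrk1, an activating receptor gene, in CD8 cells (r = 0.914). Dusp2, Dusp6 and Dusp16 had weaker best matches in at least 1 of the series, at most 0.767 for Dusp2, 0.712 for Dusp6 in the Treg series and 0.597 for Dusp16 in CD8 cells.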

How the data were processed

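RNA of sorted mouse T cells was read as SMART-Seq libraries with Nextera XT, per the labels' protocols. The authors deposited raw read counts per gene, which were used as the main values, and filtered, normalized log2 expression tables, which served as an alternative. The submitters' processing notes name STAR, Subread featureCounts, limma and the mm10 build; their versions, the annotation and the strand setting are not stated there. CPM was computed from library totals of 23420 genes. Counts were tested with edgeR 4.0.16 in R 4.3.3 (TMM, filterByExpr, robust quasi-likelihood fit, Benjamini-Hochberg over all genes tested, threshold 0.05). Batch was a term in the Treg series, within each CD8 genotype and in knockout against yfp. Source was a block where genotypes were pooled. DESeq2 1.42.0 and limma 3.58.1 were alternatives. SE is the size of the log2 fold change over the square root of the F statistic. The scripts were tested on simulated data. A gene whose group was all at 0 was set to 3 reads per library for a bound.

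The members and lists were chosen with earlier results of these data known. All members are named; of each pathway list up to 3 called genes with the largest change, and the genes most alike by r, may be named. In the Treg series batch paired the samples: deviations of same-batch libraries correlated at a median r of 0.137 (lowest 0.0349, 135 pairs), others at -0.120 (270 pairs), and the labels give the batch. In yfp CD8 cells, deviations of libraries of the same set correlated at a median r of 0.310 (30 pairs), others at -0.256 (60 pairs). The main fits within a CD8 genotype took batch as the term and not the set, which was an alternative. Within-group pairs of libraries all differed beyond sampling noise. Levels per kb used GENCODE M21 exons; promoters came from RefSeq.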

Additional observations from a re-analysis of the deposited data

Results flagged for a closer look

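In the 50 groups of member values with 4 libraries, all of them DKO CD8 cells, 6 had a library far from the other 3 by Dixon's criterion. Its rate by chance, about 1 of 20 groups, assumes normally distributed values, and the criterion was applied to CPM. Where the other 3 libraries are at 0 any value meets it, so the 6 cannot be set against that rate. Dusp1 was at 59.8 CPM in a library of DKO NDLN cells, against a median of 8.69 CPM over all NDLN libraries. Dusp14 was at 2.92 CPM in a library of DKO NDLN cells and at 1.53 CPM in a library of DKO NEG cells, where the other 3 libraries of each group were at 0. Spry1 was at 63.9 CPM in a library of DKO DP cells, against a median of 6.88 CPM over all DP libraries, at 6.36 CPM in a library of DKO NEG cells and at 0.0854 CPM, on the low side, in a library of DKO NDLN cells.

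The difference between tumour and lymph node differed between the IL10 and DN sorts for Dusp6, by 1.71 on the log2 scale, and for Dusp14, by -2.25, each by a test of the interaction. The Dusp14 result was lost without any 1 batch.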

How the results depend on the processing

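Of 59 member calls, 56 had fits that left out a replicate; 20 of these were kept in all such fits, 43 of the 59 in all other settings and 20 in both, and 0 member values were reversed. Calls between tumour and lymph node Tregs numbered 13, and 8 to 13 without a batch. Calls between Treg sorts of a site numbered 15, 9 with no replicate block and 6 to 9 without a batch. Calls among yfp CD8 populations numbered 6, 12 with DESeq2, 3 to 6 without a replicate, 6 with the set as replicate block, and 21 with all 60 libraries pooled, a setting chosen after seeing the data, which gave 18 to 20 without a source. Calls in the other genotypes numbered 19, 14 to 17 without a replicate and 18 with the set as replicate block. Knockout against yfp gave 0 calls, and 3 with no filter on low counts. The site interactions gave 2 calls, 1 with no replicate block and 0 to 1 without a batch. The cause of these changes was not tested, beyond the fewer libraries of the fits that leave some out. Il10 comparisons had no such fit within the genotype, since 1 library per group leaves no residual degrees of freedom. The block moved no other count by over 1.5 times. Depth limits members near 0: Spry2 and Dusp14 in lymph node CD8 cells, and Spry2 in lymph node Tregs. Dusp5 is not in the log2 table used for CD8 cells, nor Spry2 in that for Tregs.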
